A study of Mus musculus with 6 samples.

Results

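Cytokine signals reach the nucleus of blood cells through Janus kinases and STAT transcription factors, and STATs in turn switch on genes that dampen the signal. The 10 genes of this pathway examined here were the kinases *Jak1* and *Jak2*, the factors *Stat3*, *Stat5a* and *Stat5b*, the inhibitors *Cish*, *Socs1*, *Socs2* and *Socs3*, and the kinase gene *Pim1*. They were named by symbol, with earlier results of these data known, from 41128 genes in the table, and 9 of them were among the 9522 genes tested. *Stat5b* was lower in *Hoxa9*/*IRX3* than in *Hoxa9*/MTV leukemia cells, and no other of the 9 passed the test. Its call was narrow and was lost after other scalings and without any 1 *Hoxa9*/MTV mouse. *Cish*, *Socs1*, *Socs3* and *Pim1* differed more between mice of the same cohort than most genes did, with mouse 1.4 highest in 1 cohort and mouse 3.2 highest for most of them in the other.

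RNA was taken from flow-sorted KIT+Gr1+ leukemia cells of the bone marrow (BM) of 6 sick C57BL/6 mice, 1 library per mouse. All leukemias began with KIT+ BM cells of young adult female CD45.1+ donors that were infected with retroviral *Hoxa9* and a second retrovirus, selected with drugs, and injected together with normal CD45.2+ BM into lethally irradiated female CD45.2+ recipients. The second virus was the empty vector MTV in the *Hoxa9*/MTV cohort (mice 1.1, 1.2 and 1.4) and human IRX3 cDNA in the *Hoxa9*/*IRX3* cohort (mice 3.2, 3.3 and 3.5). Before injection the cells of both cohorts were cultured with SCF, IL6, GM-CSF and IL3, all of which are ligands of KIT or of receptors that use Janus kinases. Both genes were driven by viral vectors in a mixed population of infected cells, and the leukemic BM was frozen and thawed before the CD45.1+ KIT+Gr1+ sort. The comparison asks how leukemias with IRX3 added to *Hoxa9* differ from those without it. The paper reports that *Hoxa9*/*IRX3* recipients developed AML later and had a higher share of blast cells. Time of onset and cell make-up thus differed along with IRX3, and their part in the values was not tested. Levels are RPKM, reads per kilobase of gene relative to library size, and each library held between 7979246 and 9803621 reads.

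As background, a cytokine receptor carries Janus kinases on its inner tail, and ligand binding lets them phosphorylate STAT proteins, which pair and enter the nucleus. In myeloid progenitors the receptors for IL3 and GM-CSF act mainly through JAK2 and STAT5, and those for IL6 and G-CSF act largely through JAK1 and STAT3. CIS, encoded by *Cish*, and the SOCS proteins are made in response to STATs and dampen the receptor or the kinase, so that their RNA is often read as a sign of recent signaling. Much of the regulation of kinases and STATs is by phosphorylation, which RNA levels do not measure.

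STAT dimers recognise TTCNNNGAA, which has the same form on both strands. In RefSeq's windows of 250 bases before annotated starts (GRCm38.p6), 7.02% of 32851 windows held this motif. Windows were listed for 9 of the 10 genes, 12 windows in all, and 1 of the 12 held it, that of *Socs3*, with its first base 154 bases before the start site. That start site lies within the annotated *Socs3* gene (chr11:117966079-117970047), so this motif lies inside the gene and not upstream of it. The window of *Cish* lay wholly within annotated exons, so its lack of the motif does not describe sequence upstream of the gene. The stretches below lie outside annotated exons and are printed 5′ to 3′ on the strand of the gene, with the motif in capitals. They are shown because *Socs3* carries the motif, *Socs1* and *Pim1* are feedback or target genes whose windows do not, and *Stat5b* is the gene that passed the test. A match of letters is no proof of binding, and these short windows leave out distant sites.
*Socs3* (chr11:117969452-117969616, minus strand): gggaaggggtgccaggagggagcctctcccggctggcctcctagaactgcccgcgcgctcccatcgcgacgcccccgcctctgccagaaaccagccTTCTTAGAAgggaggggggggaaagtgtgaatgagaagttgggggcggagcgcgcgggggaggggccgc
*Socs1* (chr16:10785537-10785786, minus strand): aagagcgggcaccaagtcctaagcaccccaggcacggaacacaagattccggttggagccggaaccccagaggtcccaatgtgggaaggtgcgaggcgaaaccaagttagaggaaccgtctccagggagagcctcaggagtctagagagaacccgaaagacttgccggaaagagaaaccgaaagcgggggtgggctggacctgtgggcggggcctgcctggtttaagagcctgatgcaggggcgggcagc
*Pim1* (chr17:29490535-29490752, plus strand): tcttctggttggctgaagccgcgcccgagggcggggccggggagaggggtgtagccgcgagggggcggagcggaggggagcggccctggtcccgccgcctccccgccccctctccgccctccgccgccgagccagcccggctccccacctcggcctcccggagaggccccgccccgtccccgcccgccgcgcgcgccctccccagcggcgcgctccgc
*Stat5b* (chr11:100850725-100850831, minus strand): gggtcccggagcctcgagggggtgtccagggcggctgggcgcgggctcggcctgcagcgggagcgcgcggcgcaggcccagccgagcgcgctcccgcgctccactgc

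The order of the genes by level was compared on RPKM recomputed per kilobase of exon (exon RPKM), because those in the table divide by the whole gene with its introns. On this scale *Pim1* had the highest mean level in both cohorts, 38.7 ± 38.05 in *Hoxa9*/MTV and 90.1 ± 56.7 in *Hoxa9*/*IRX3* (SD, n = 3 each), and *Stat5b* followed with 35.1 ± 1.29 and 20.9 ± 2.92. *Stat3* came after these, with 17.8 ± 4.37 and 20.2 ± 0.488. The kinases lay close to it, *Jak2* at 16.5 ± 1.00 and 11.3 ± 3.93 and *Jak1* at 15.0 ± 0.253 and 17.05 ± 3.32, and *Stat5a* lay lower, at 10.7 ± 0.579 and 8.10 ± 2.41. The inhibitors came last in *Hoxa9*/MTV, with *Socs1* at 4.31 ± 5.32, *Socs3* at 2.54 ± 4.22, *Cish* at 0.577 ± 0.419 and *Socs2* at 0.0786 ± 0.0699. In *Hoxa9*/*IRX3*, *Cish* stood between *Jak2* and *Stat5a* at 10.03 ± 10.2, followed below *Stat5a* by *Socs1* at 6.80 ± 6.92, *Socs3* at 3.62 ± 2.65 and *Socs2* at 0.372 ± 0.362. Neighbors in the order often could not be told apart. In *Hoxa9*/MTV the ranges over mice overlapped between *Pim1* and *Stat5b*, between *Stat3* and *Jak2*, between *Stat5a* and *Socs1*, between *Socs1* and *Socs3*, and between *Socs3* and *Cish*. In *Hoxa9*/*IRX3* they overlapped for all neighbors except *Pim1* with *Stat5b* and *Socs3* with *Socs2*. Exon RPKM divide all reads recovered for a gene by its exon length. Whether reads in introns were counted is not given in the sources used here. If they were, genes with long introns stand too high in this order.

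**Figure D1:**
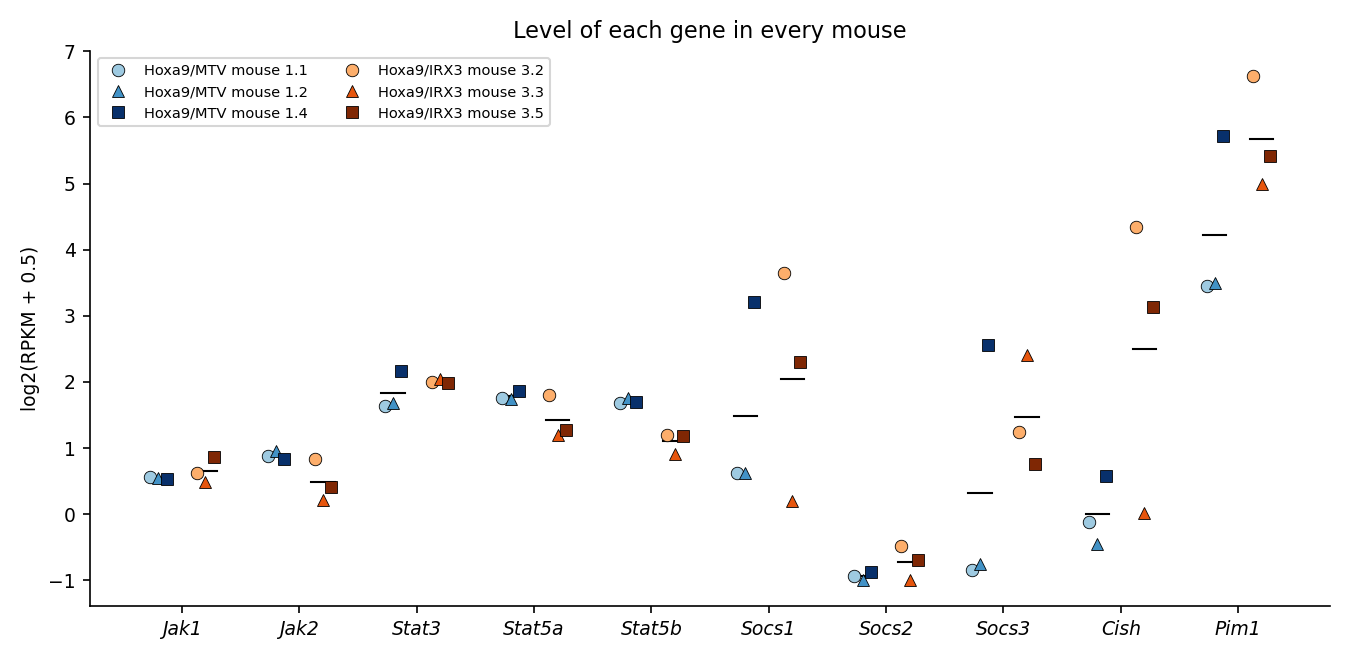
Level of the 10 genes in every mouse, as log2(RPKM + 0.5); each point is 1 mouse, and bars mark the mean of the 3 mice of a cohort. The kinases and STAT factors sit close together within a cohort, whereas the points of *Socs1*, *Socs3*, *Cish* and *Pim1* are far apart.

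Neither kinase passed the test. *Jak1* (chr4:101152367-101265282, GRCm38) encodes a kinase that works with most cytokine receptor families. Its RPKM were 0.972, 0.967 and 0.942 in mice 1.1, 1.2 and 1.4 and 1.04, 0.906 and 1.32 in mice 3.2, 3.3 and 3.5. The cohorts overlapped, and the log2 fold change of *Hoxa9*/*IRX3* over *Hoxa9*/MTV, taken on log2(RPKM + 0.5), was 0.12 ± 0.13 (SE; 95% confidence interval -0.19 to 0.42; limma adjusted p = 0.609). *Jak2* (chr19:29251828-29313080), which encodes the kinase of the IL3, GM-CSF, erythropoietin and thrombopoietin receptors, had RPKM of 1.33, 1.45 and 1.29 in *Hoxa9*/MTV mice and 1.28, 0.661 and 0.827 in *Hoxa9*/*IRX3* mice. Its cohorts did not overlap, but mouse 3.2 lay just under the lowest *Hoxa9*/MTV mouse. This was a log2 fold change of -0.40 ± 0.17 (SE; 95% confidence interval -0.82 to 0.01; limma adjusted p = 0.213). Without mouse 3.2 it was -0.58 with a limma adjusted p of 0.0470, so that 1 library decided on which side of the threshold *Jak2* fell. Among the 4 Janus kinases, all tested, limma called 0 in either direction, 0 had an unadjusted p under 0.05, and voom on the recovered reads also called 0; their median log2 fold change was -0.13, beside -0.06 for all genes tested.

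*Stat5b* fell. STAT5B and its close relative STAT5A transmit signals of IL3, GM-CSF and other cytokines. RPKM of *Stat5b* (chr11:100780731-100850724) were 2.70, 2.89 and 2.75 in mice 1.1, 1.2 and 1.4, from 1669, 1682 and 1860 reads, and 1.80, 1.39 and 1.78 in mice 3.2, 3.3 and 3.5, from 1114, 953 and 995 reads. Every *Hoxa9*/*IRX3* mouse lay below every *Hoxa9*/MTV mouse, and the mean was 59.6% of that in *Hoxa9*/MTV. The log2 fold change was -0.61 ± 0.12 (SE; 95% confidence interval -0.89 to -0.33), with a limma adjusted p of 0.0376. *Stat5b* was thereby the 1 gene of 9 called lower, and 0 of 9 were called higher, where limma called 3.52% of all 9522 genes lower and 1.84% higher. The count of 1 of 9 is too small to be set apart from that background. At an unadjusted p under 0.05, 2 of the 9 passed, *Stat5b* and *Cish*, beside 24.3% of all genes tested, and voom on the recovered reads called 1 lower and 0 higher.

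The change of *Stat5b* was under 2-fold, and its call was narrow. Without mouse 1.1, 1.2 or 1.4 the limma adjusted p was 0.134, 0.157 and 0.153, although the log2 fold change stayed between -0.66 and -0.52 over the 6 fits with 1 mouse left out. It was 0.0657 after median-of-ratios scaling and 0.0781 after quantile normalization. By the criterion of the study, an unadjusted p under 0.05 with a ratio of means above 2, 2.26% of the tested genes were higher and 4.72% lower, and 0 of the 9 genes met it. Only *Jak2* and *Stat5b* of the 9 had cohorts that did not overlap, both lower in *Hoxa9*/*IRX3*, beside 21.6% of all genes tested that lay lower without overlap and 12.2% that lay higher.

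**Figure D2:**
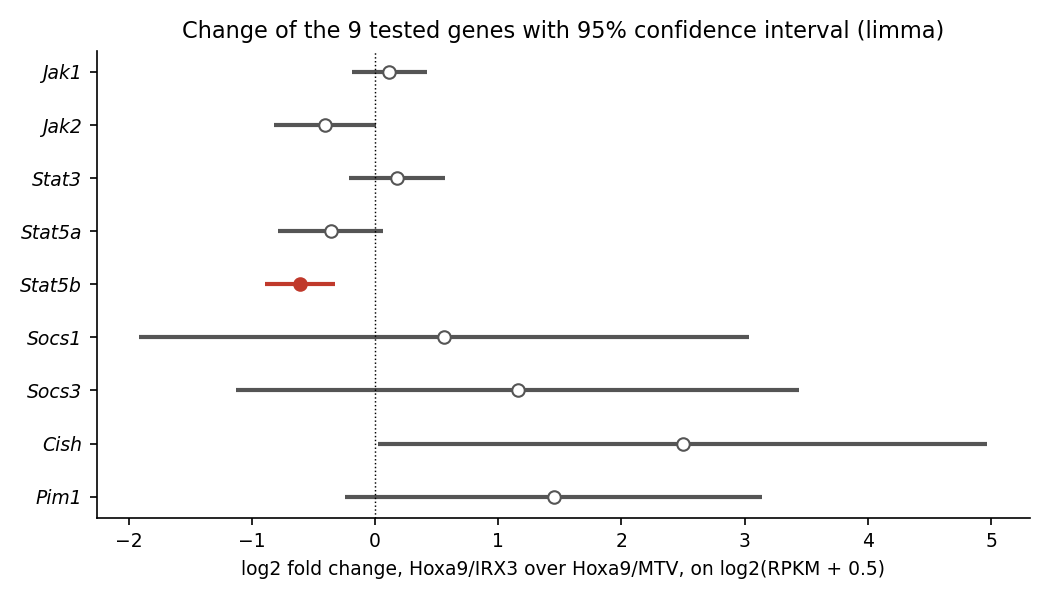
Log2 fold change of the 9 tested genes, *Hoxa9*/*IRX3* over *Hoxa9*/MTV, with bars for the 95% confidence interval from limma; the filled red point marks an adjusted p under 0.05. *Stat5b* alone is filled, at -0.61, and the intervals of *Socs1*, *Socs3*, *Cish* and *Pim1* are the widest.

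*Stat5a* (chr11:100859351-100885169) did not pass. Its RPKM were 2.89, 2.83 and 3.13 in *Hoxa9*/MTV mice and 3.00, 1.79 and 1.92 in *Hoxa9*/*IRX3* mice. Mice 3.3 and 3.5 lay below the *Hoxa9*/MTV range and mouse 3.2 lay inside it. The log2 fold change was -0.36 ± 0.18 (SE; 95% confidence interval -0.79 to 0.07; limma adjusted p = 0.269), and without mouse 3.2 it was -0.55 with a limma adjusted p of 0.0428. Because the proteins act alike in many cells, levels of both genes were summed on exon length. The sum was 44.5, 46.8 and 46.1 exon RPKM in mice 1.1, 1.2 and 1.4 and 33.6, 24.0 and 29.5 in mice 3.2, 3.3 and 3.5. All *Hoxa9*/*IRX3* mice lay below all *Hoxa9*/MTV mice, 29.0 ± 4.78 against 45.8 ± 1.16 (SD, n = 3 each). *Stat5b* made up 76.7% ± 1.37 of the sum in *Hoxa9*/MTV and 72.4% ± 4.45 in *Hoxa9*/*IRX3*, and these shares overlapped (SD, n = 3 each). The 2 genes are near copies in their coding parts, so the assignment of some reads between them is uncertain. Their order also depends on the length used. Per whole gene, mean RPKM of *Stat5a* and *Stat5b* were 2.95 and 2.78 in *Hoxa9*/MTV and 2.24 and 1.66 in *Hoxa9*/*IRX3*.

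**Figure D3:**
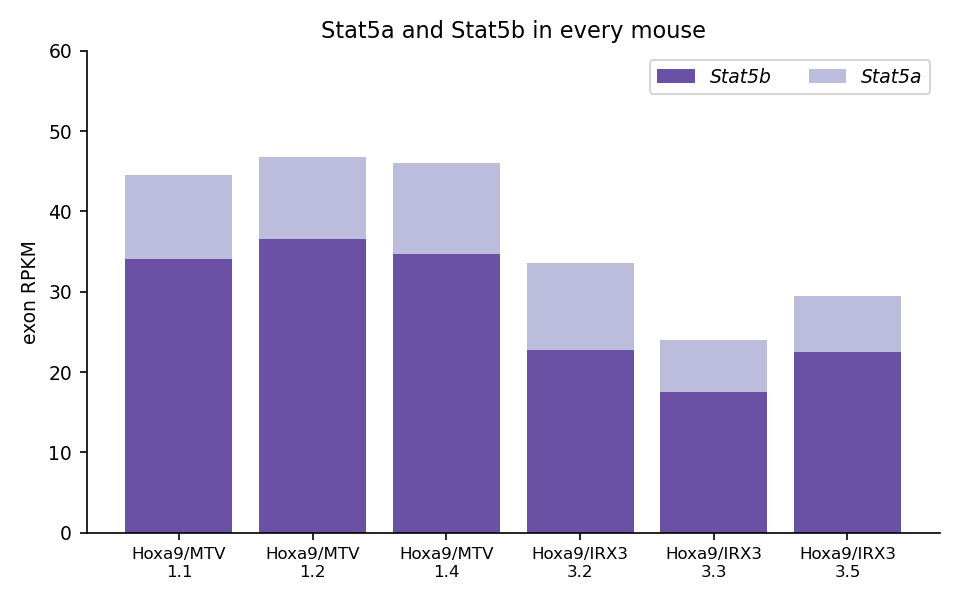
Stacked bars of *Stat5b* (dark) and *Stat5a* (light) in every mouse, as exon RPKM (RPKM per kilobase of exon). The 3 *Hoxa9*/*IRX3* bars end between 24.0 and 33.6 and the 3 *Hoxa9*/MTV bars between 44.5 and 46.8.

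STAT3 transmits signals of IL6 and G-CSF. *Stat3* (chr11:100885098-100939540) had RPKM of 2.63, 2.72 and 3.99 in *Hoxa9*/MTV mice and 3.50, 3.63 and 3.46 in *Hoxa9*/*IRX3* mice. Mouse 1.4 lay above all others, and mice 1.1 and 1.2 lay below all *Hoxa9*/*IRX3* mice. *Stat3* had a log2 fold change of 0.18 ± 0.16 (SE; 95% confidence interval -0.21 to 0.57; limma adjusted p = 0.529). *Stat3* and *Stat5a* lie on opposite strands and share 72 bases at their ends. Libraries kept the strand, but whether reads were counted by strand is not given in the sources used here. Of the 7 STAT genes, 6 were tested, and their median log2 fold change was 0.08. Limma called 1 lower and 0 higher, beside 3.52% and 1.84% of all genes tested.

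*Cish* had the largest estimated change and did not pass. CIS binds activated receptors and competes with STAT5, and *Cish* is a textbook STAT5 target. RPKM of *Cish* (chr9:107296026-107302784) were 0.418, 0.232 and 0.994 in mice 1.1, 1.2 and 1.4, from 25, 13 and 65 reads. They were 19.8, 0.513 and 8.27 in mice 3.2, 3.3 and 3.5, from 1185, 34 and 446 reads. Mice 3.2 and 3.5 lay far above every *Hoxa9*/MTV mouse, whereas mouse 3.3 lay within the *Hoxa9*/MTV range. The log2 fold change was 2.50 ± 1.03 (SE; 95% confidence interval 0.02 to 4.97), the unadjusted p was 0.0485 and the limma adjusted p was 0.202. Within the *Hoxa9*/*IRX3* cohort the highest mouse had 38.6 times the RPKM of the lowest, and the SD of log2(RPKM + 0.5) over the 3 mice, 2.23, was reached by 0.284% of the tested genes. Without mouse 3.3 the log2 fold change of *Cish* was 3.74 with a limma adjusted p of 0.0142, and without mouse 3.2 it was 1.57, so that the call rests on which *Hoxa9*/*IRX3* mice are counted. A pseudogene and an antisense gene that overlap *Cish* on the other strand had at most 0.261 RPKM in any mouse.

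*Socs2* had few reads, and it was not tested because no mouse reached 0.5 RPKM. SOCS2 is another STAT5-induced inhibitor, best known for restraining growth hormone signals. Reads of *Socs2* (chr10:95385362-95417180) numbered 6, 1 and 14 in mice 1.1, 1.2 and 1.4 and 61, 0 and 30 in mice 3.2, 3.3 and 3.5. Mice 3.2 and 3.5 were above all *Hoxa9*/MTV mice, and 0 reads in mouse 3.3 allow up to 3 reads, or 0.00962 RPKM, in counting error only. The order of the *Hoxa9*/*IRX3* mice was that of *Cish*. RPKM were 0.0235 ± 0.0209 in *Hoxa9*/MTV and 0.112 ± 0.108 in *Hoxa9*/*IRX3* (SD, n = 3 each; two-sided exact permutation p = 0.4, where 3 against 3 allow no p below 0.1).

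SOCS1, an inhibitor of Janus kinases that restrains interferon signals, has its gene at chr16:10782240-10785536. RPKM of *Socs1* were 1.05, 1.04 and 8.79 in *Hoxa9*/MTV mice and 12.1, 0.649 and 4.42 in *Hoxa9*/*IRX3* mice. Mouse 1.4 in one cohort and mouse 3.2 in the other were high, mouse 3.3 was the lowest of all 6, and the cohorts overlapped. The highest mouse had 8.42 times the RPKM of the lowest in *Hoxa9*/MTV and 18.6 times in *Hoxa9*/*IRX3*. The estimated log2 fold change of *Socs1* was 0.56 ± 1.03 (SE; 95% confidence interval -1.92 to 3.04; limma adjusted p = 0.769). Without mouse 3.2 its sign turned, to -0.24, so no direction was given by these mice.

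*Socs3* did not share the order of *Cish* in the *Hoxa9*/*IRX3* mice. SOCS3 blocks the receptors for IL6 and G-CSF, and its gene at chr11:117966079-117970047 is induced by STAT3. RPKM of *Socs3* were 0.0570, 0.0910 and 5.39 in mice 1.1, 1.2 and 1.4, from 2, 3 and 207 reads, and 1.88, 4.83 and 1.20 in mice 3.2, 3.3 and 3.5, from 66, 188 and 38 reads. Mouse 1.4 was again apart from the other *Hoxa9*/MTV mice and was the highest of all. Mouse 3.3, the lowest *Hoxa9*/*IRX3* mouse for *Cish*, *Socs1* and *Socs2*, was the highest of its cohort for *Socs3*. For *Socs3* the log2 fold change was 1.16 ± 0.96 (SE; 95% confidence interval -1.13 to 3.45; limma adjusted p = 0.490). It was 2.28 without mouse 1.4 (limma adjusted p = 0.123). The spread within *Hoxa9*/MTV, an SD of 1.94 in log2(RPKM + 0.5), was reached by 0.0420% of the tested genes.

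The CIS and SOCS family has 8 genes, and 5 were tested. Limma called 0 in either direction, voom on the recovered reads called 0, and 2 had an unadjusted p under 0.05, *Cish* and *Socs7*, at 2.50 and -0.35 in log2 fold change. The median log2 fold change of the 5 was 0.56. *Socs6* lay under the threshold for testing, with 0.314, 0.256 and 0.308 RPKM in *Hoxa9*/MTV mice and 0.136, 0.156 and 0.120 in *Hoxa9*/*IRX3* mice, which did not overlap. It was called lower where it was tested, at limma adjusted p of 0.0268 on exon length (log2 fold change -0.98) and 0.0351 with no filter on low values (-0.31).

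*Pim1* (chr17:29490753-29496112) encodes a serine/threonine kinase that supports survival and growth of blood cells and is a target of STAT5 and STAT3. Its RPKM were 10.4, 10.8 and 52.4 in *Hoxa9*/MTV mice and 98.2, 31.2 and 42.0 in *Hoxa9*/*IRX3* mice. All *Hoxa9*/*IRX3* mice were above mice 1.1 and 1.2, and mouse 1.4 was above mice 3.3 and 3.5. The log2 fold change was 1.45 ± 0.71 (SE; 95% confidence interval -0.24 to 3.14; limma adjusted p = 0.262), and without mouse 1.4 the limma adjusted p was 0.134. An antisense gene that overlaps *Pim1* over 1173 bases had at most 0.0207 RPKM in any mouse. Of the 3 PIM kinases, limma and voom called 0 and 0 had an unadjusted p under 0.05. *Pim2* and *Pim3* had log2 fold changes of -0.35 and -0.69, and both were highest in mouse 1.4, at 2.04 and 17.6 RPKM.

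**Figure D4:**
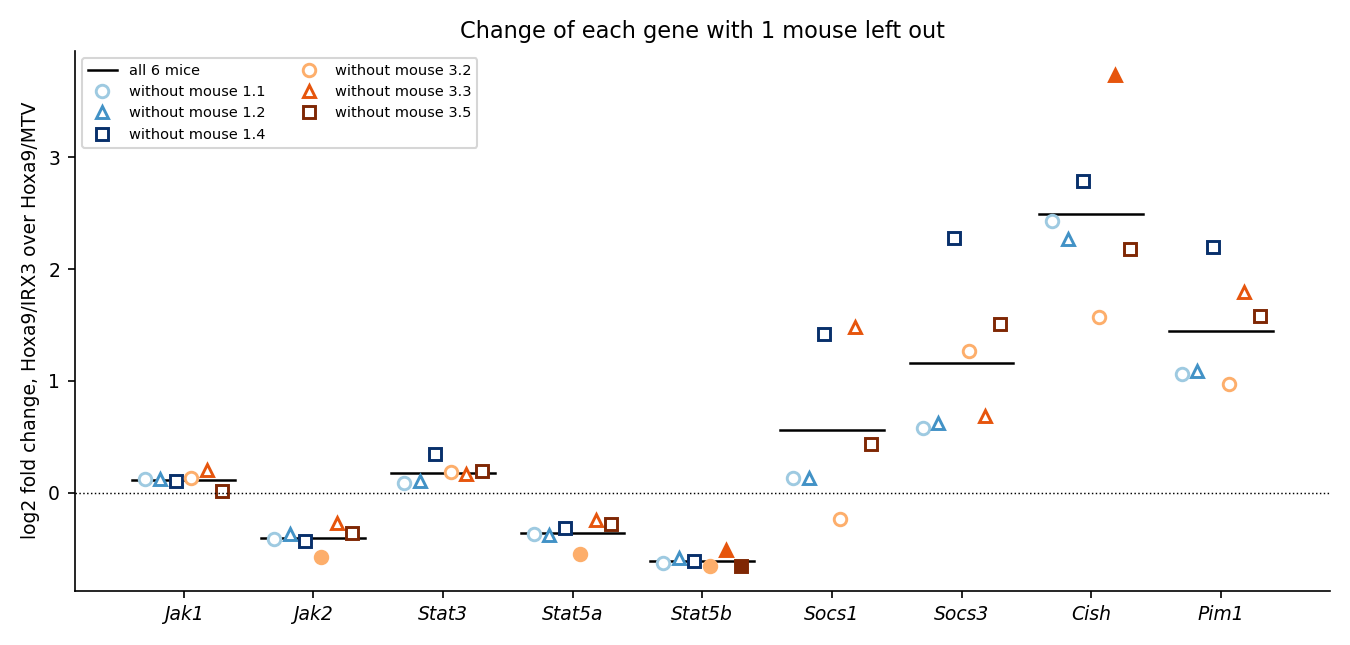
Log2 fold change of each tested gene with 1 mouse left out at a time; black lines mark the value from all 6 mice, and filled symbols have a limma adjusted p under 0.05. *Jak2* and *Stat5a* are filled without mouse 3.2, *Cish* without mouse 3.3, and *Stat5b* without any 1 of the 3 *Hoxa9*/*IRX3* mice.

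Spread among mice of a cohort differed between the genes. In log2(RPKM + 0.5), SDs within *Hoxa9*/MTV were 0.0160 for *Jak1*, 0.0635 for *Jak2*, 0.0662 for *Stat5a* and 0.0447 for *Stat5b*, values reached or passed by 97.7%, 79.6%, 78.2% and 88.3% of the tested genes. For *Socs1*, *Pim1* and *Cish* they were 1.49, 1.30 and 0.53, reached by 0.158%, 0.252% and 2.99% of the tested genes. *Stat3* lay between, with 0.29, reached by 11.1% of the tested genes. In *Hoxa9*/*IRX3* the kinases and STAT5 genes were less steady, with SDs of 0.19 for *Jak1*, 0.32 for *Jak2*, 0.33 for *Stat5a* and 0.16 for *Stat5b*, reached by 62.8%, 37.0%, 34.2% and 70.1% of the tested genes, whereas the 0.03 of *Stat3* was reached by 98.4%. There the SDs of *Socs1*, *Socs3* and *Pim1* were 1.74, 0.85 and 0.85, reached by 0.693%, 5.43% and 5.35% of the tested genes. Mouse 1.4 was the highest *Hoxa9*/MTV mouse for 7 of the 10 genes, including all 5 of *Cish*, *Socs1*, *Socs2*, *Socs3* and *Pim1*, and it was so for 36.5% of the tested genes. Mouse 3.2 was the highest *Hoxa9*/*IRX3* mouse for 7 of the 10, including 4 of those 5, and for 39.3% of the tested genes.

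Other genes also differed between mice. Of 12 immediate early genes, which respond to growth factors and also to handling of cells, mouse 1.4 was the highest *Hoxa9*/MTV mouse for 9. Among *Hoxa9*/*IRX3* mice, mouse 3.3 was highest for 8 of the 12, as it was for *Socs3*. Mouse 3.2, the highest for *Cish*, *Socs1*, *Socs2* and *Pim1*, was highest for 4. Their summed RPKM were 822 to 1441 in *Hoxa9*/MTV and 235 to 614 in *Hoxa9*/*IRX3*. Limma called 2 of the 12 lower, *Fos* at a log2 fold change of -2.81 and *Nr4a1* at -1.49, and 0 higher. Of all genes tested, it called 3.52% lower and 1.84% higher. The 12 immediate early genes had a median log2 fold change of -1.28, beside -0.06 for all genes tested. Without overlap, 7 of them lay lower and 0 higher, beside 21.6% and 12.2% of all genes tested. Their part in the spread of the feedback genes was not tested. Mouse 3.3, low for *Cish*, *Socs1* and *Socs2*, differed from the other *Hoxa9*/*IRX3* mice in *Irf8* and *Csf1r*, genes of the monocyte lineage. The monocyte factor gene *Irf8* had RPKM of 2.61, 63.1 and 2.98 in mice 3.2, 3.3 and 3.5, and *Csf1r*, the receptor of the macrophage growth factor, had 0.790, 6.43 and 0.552. In *Hoxa9*/MTV mice *Irf8* lay between 25.5 and 39.6 and *Csf1r* between 4.77 and 5.94. Mouse 3.3 lay above that range in both genes, and mice 3.2 and 3.5 lay below it. Of the 14 monocyte and macrophage markers, 9 were tested. Limma called 3 lower and 0 higher, beside the same 3.52% and 1.84% of all genes tested. Of the 9, 8 had a log2 fold change below 0. Without overlap, 3 lay lower, in mouse 3.3 too, beside 21.6% of all genes tested. *C1qc* and *Marco* were at 0 in all mice, and the summed RPKM were 541 to 580 in *Hoxa9*/MTV and 483 to 879 in *Hoxa9*/*IRX3*. In RNA of sorted pools, fewer cells of a type and less RNA per cell cannot be told apart, and the part of these cells in the values of *Cish* was not tested.

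The sorted identity was checked on markers. *Kit* ranged from 1.63 to 3.12 RPKM, *Ly6c2*, a Gr1 antigen gene, from 413 to 844, and *Ly6g*, the other Gr1 antigen gene, was called higher in *Hoxa9*/*IRX3* (0.0532 to 0.145 against 0.682 to 1.42 RPKM). *Cd3d*, *Ms4a1* and *Ppbp*, defining genes of T cells, B cells and platelets, were at 0 in all 6 mice. Other genes of those lists were not. The 10 T and NK cell markers summed to 22.6 to 33.01 RPKM in *Hoxa9*/MTV and 14.9 to 482 in *Hoxa9*/*IRX3*, nearly all of it *Nkg7*, with 100.2, 14.9 and 482 RPKM in mice 3.2, 3.3 and 3.5, and *Cd3e* and *Trac* were at 0.0104 RPKM or less. The 8 B cell markers summed to 6.45 to 7.33 RPKM in *Hoxa9*/MTV and 2.01 to 43.4 in *Hoxa9*/*IRX3*. Of the 3 tested, *Cd79b* was called lower, and *Igll1* and *Vpreb1*, of the early B lineage, were higher without overlap and did not pass, *Igll1* with 0.0312 to 0.102 RPKM in *Hoxa9*/MTV and 1.19, 9.11 and 38.4 in mice 3.2, 3.3 and 3.5. The part of such cells in the results was not tested. Of the 11 gate and leukemia markers 10 were tested, with 2 called higher and 1 lower, beside 1.84% and 3.52% of all genes tested. Log2 fold changes of the 10 ran from -3.84 to 1.91, with 7 above 0 and 3 below. Summed RPKM of the 11 were 2077 to 2891 in *Hoxa9*/MTV and 5018 to 6518 in *Hoxa9*/*IRX3*. Without overlap, 5 of the 10 lay higher and 1 lower, beside 12.2% and 21.6% of all genes tested. Of 11 neutrophil markers, all tested, 2 were called higher, beside 1.84% of all genes tested. Among tested markers, 2 of 5 of mast cells and basophils were called lower, and 1 of 4 of dendritic cells with MHC class II. Of all genes tested, 3.52% were called lower. For T and NK cells and for megakaryocytes, 1 marker each was tested and 0 were called, each by limma. Of 9 erythroid markers 0 were high enough to be tested.

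The receptors upstream of the kinases were compared next. Of 30 cytokine receptor genes that use Janus kinases, 19 were tested. Limma called 2 lower and 0 higher, beside 3.52% and 1.84% of all genes tested. Voom on the recovered reads called 1 lower and 0 higher. Without overlap, 9 of the 19 lay lower and 1 higher, beside 21.6% and 12.2% of all genes tested. An unadjusted p under 0.05 was reached by 12 of the 19, beside 24.3% of all genes tested. Their median log2 fold change was -0.43, beside -0.06 for all genes tested. *Il10ra*, the ligand-binding chain of the IL10 receptor, had RPKM of 3.61, 2.94 and 3.72 in *Hoxa9*/MTV mice and 0.332, 0 and 0.180 in *Hoxa9*/*IRX3* mice. It fell to 4.98% of the *Hoxa9*/MTV mean, with a log2 fold change of -2.57 ± 0.20 (SE; limma adjusted p = 0.00298), and was called in all 6 fits with 1 mouse left out. *Il6ra*, the ligand-binding chain of the IL6 receptor, had RPKM of 5.72, 5.28 and 5.00 against 2.13, 2.12 and 0.686. Its cohorts did not overlap, and the log2 fold change was -1.53 ± 0.31 (SE; limma adjusted p = 0.0447; 0.151 to 0.160 without any 1 *Hoxa9*/MTV mouse). With all mice the call of *Il6ra* was also lost on exon length, with voom, a pseudocount of 0.1, all gene types and no filter on low values, at limma adjusted p of 0.0507, 0.0522, 0.0599, 0.0745 and 0.0876. *Csf2rb*, the chain that the IL3 and GM-CSF receptors share, and its relative *Csf2rb2* did not pass, and their cohorts overlapped. RPKM of *Csf2rb* were 11.5 to 18.8 in *Hoxa9*/MTV and 12.3 to 20.9 in *Hoxa9*/*IRX3*. Those of *Csf2rb2* were 1.52 to 2.58 and 1.42 to 5.19. These genes are near copies of each other, so their reads are uncertain.

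Of 18 ligand genes, 5 were tested and 5 were at 0 in all mice. Limma called 1 higher and 1 lower, beside 1.84% and 3.52% of all genes tested. *Tslp*, which encodes a cytokine that signals through a receptor of CRLF2 and IL7R to STAT5, had 0, 0 and 0.0234 RPKM in mice 1.1, 1.2 and 1.4 and 2.10, 2.31 and 1.42 in mice 3.2, 3.3 and 3.5. With 1 read in all *Hoxa9*/MTV mice and 232 in all *Hoxa9*/*IRX3* mice, the ratio per library size was 234 (95% exact interval 41.5 to 9264, counting error only). *Tslp* rose, with cohorts that did not overlap (limma adjusted p = 0.00298), and was called in all 6 fits with 1 mouse left out. Its receptor chains did not follow: *Crlf2* had RPKM of 6.47 to 6.86 in *Hoxa9*/MTV and 3.77 to 5.94 in *Hoxa9*/*IRX3* and did not pass, and *Il7r* was at 0.0476 RPKM or less in every mouse. *Osm*, which encodes oncostatin M and is also a STAT5 target, fell, from 4.42, 3.92 and 6.15 RPKM to 2.18, 1.57 and 1.496 (log2 fold change -1.23 ± 0.20, SE; limma adjusted p = 0.0232; 0.0706 to 0.0922 without any 1 *Hoxa9*/MTV mouse and 0.0501 without mouse 3.5).

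Target genes of STAT5 and STAT3 other than the 10 moved both ways. Of 20, 19 were tested, and limma called 2 higher and 3 lower, *Osm* included, beside 1.84% and 3.52% of all genes tested. The median log2 fold change of the 19 was -0.02. *Ccnd1*, which encodes cyclin D1, fell from 3.71, 6.60 and 2.76 RPKM in *Hoxa9*/MTV mice to 0.159, 0.0308 and 0.151 in *Hoxa9*/*IRX3* mice, with a log2 fold change of -2.91 ± 0.28 (SE; limma adjusted p = 0.00553). *Bcl2*, which encodes an inhibitor of apoptosis, fell from 1.03, 0.755 and 0.720 to 0.299, 0.177 and 0.315 (log2 fold change -0.80 ± 0.15, SE; limma adjusted p = 0.0369). *Gfi1*, a repressor gene of granulocyte development, rose from 28.4, 25.3 and 27.8 to 92.7, 94.4 and 82.4 (log2 fold change 1.71 ± 0.13, SE; limma adjusted p = 0.00298). *Hif1a*, which encodes the oxygen-regulated factor, rose from 1.99, 2.22 and 2.83 to 3.88, 4.71 and 4.65 (log2 fold change 0.80 ± 0.15, SE; limma adjusted p = 0.0360). In all 4 the cohorts did not overlap. *Ccnd1* and *Gfi1* were called in all 6 fits with 1 mouse left out, whereas *Bcl2* and *Hif1a* were called in 1 of 6 each, the fit without mouse 3.2, and had limma adjusted p of 0.0524 to 0.148 and 0.0602 to 0.152 in the others. All of these are also regulated outside the pathway.

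Of 14 other inhibitors of the pathway, 12 were tested. Limma called 0, 3 had an unadjusted p under 0.05, and voom called 1 lower. Over all pathway lists examined, with the 10 genes left out, 72 of 102 genes were tested. Limma called 3 of the 72 higher and 5 lower, beside 1.84% and 3.52% of all genes tested, and their median log2 fold change was -0.03.

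**Figure D5:**
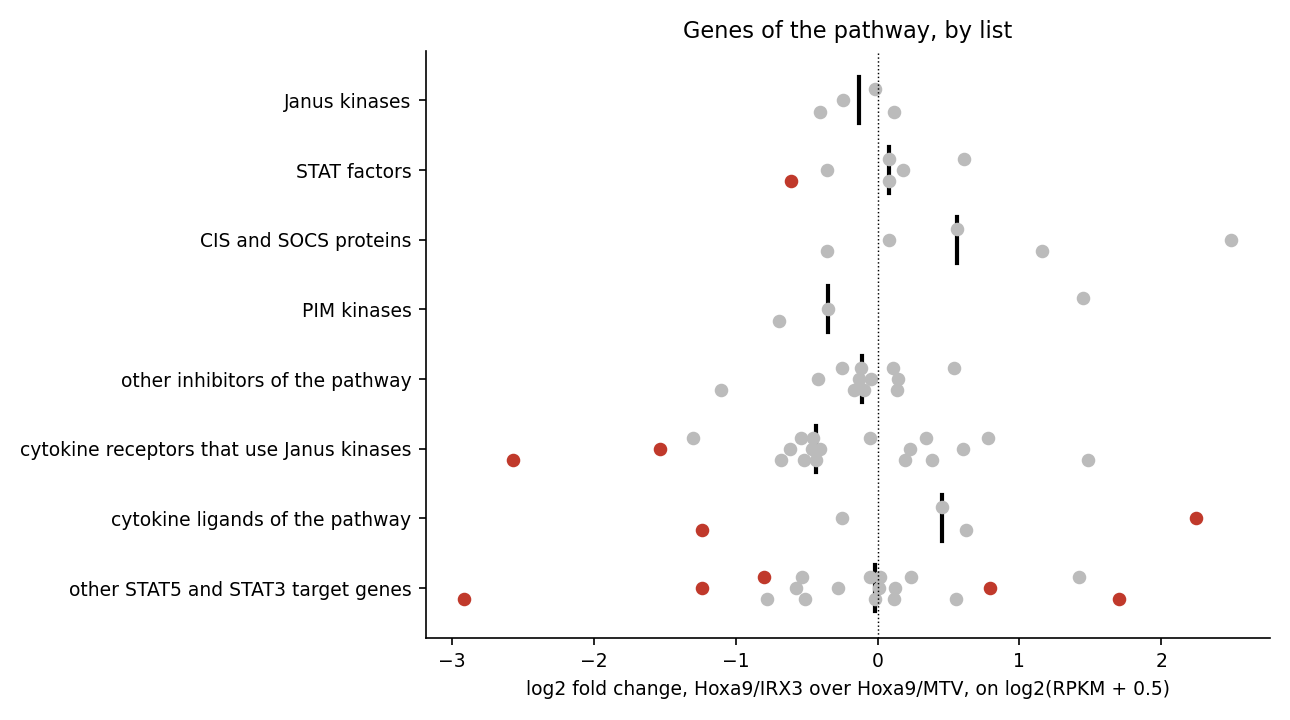
Log2 fold change of the tested genes of each pathway list, *Hoxa9*/*IRX3* over *Hoxa9*/MTV; red points have a limma adjusted p under 0.05, gray points do not, and black bars mark the median of each list. The medians lie between -0.43 for the receptors and 0.56 for CIS and SOCS proteins, and the red points lie on both sides of 0.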

How the data were processed

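The authors aligned paired reads of strand-specific polyA libraries to GRCm38 with Bowtie2 2.2.1, filtered the alignments on mapping, primary status and quality with SAMtools 0.1.19, and deposited RPKM per gene and mouse. These RPKM divide by the whole gene span. The reads behind them were recovered from steps between low values, and were whole within 0.01 of a read for 65.0% of tested genes. GENCODE M21 gave positions and exon lengths; 874 of 41128 genes had no entry. Protein-coding genes over 0.5 RPKM in at least 1 mouse were tested with limma 3.58.1 on log2(RPKM + 0.5) (variance trend, Benjamini-Hochberg adjustment over all tested genes), and called at an adjusted p under 0.05. Replicates were separate mice, and mouse numbers did not pair the cohorts. On simulated data limma called 177 of 200 genes changed 4-fold and 13 unchanged ones. Smaller changes, such as that of *Stat5b*, were not simulated. All 10 genes are described with every mouse, and other genes are named if called, at most 5 per list, or if their values moved with a result. Members and lists were chosen with earlier results of these data known. Alternatives included other pseudocounts, filters and scalings, exon length, voom and leaving out each mouse. *Socs2* has no promoter entry in the RefSeq table. Other genes of the pathway named without a call were chosen after their values were seen. Some genes of the lists are not reported here.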

Additional observations from a re-analysis of the deposited data

How the results depend on the processing

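Of 726 recomputed values, 612 kept their direction and side of the threshold or stayed within 1.5 times. Of the 10 genes, 1 was called lower and 0 higher in the fit described. None was called lower under median-of-ratios scaling, quantile normalization, no filter on low values or all gene types (0 each), where the limma adjusted p of *Stat5b* was 0.0657, 0.0781, 0.0577 and 0.0615. With 1 mouse left out, 0 to 3 were called lower and 0 to 1 higher. *Socs1* reversed, to a log2 fold change of -0.24, without mouse 3.2; the cause was not tested. Of the other pathway genes, with all mice 3 called higher and 5 lower, 2 to 5 were called higher and 2 to 7 lower with 1 mouse left out, 3 lower with all gene types and 8 lower on exon length. Over all genes, 175 were called higher and 335 lower, against 24 to 255 and 37 to 506 with 1 mouse left out, the fewest without a *Hoxa9*/MTV mouse; exon length gave 300 higher and all gene types 204 lower. Of the calls, 34.3% were higher in the fit described, 43.7% after median-of-ratios scaling and 46.1% after quantile normalization; the median of all genes was -0.06, 0.01 and 0.02. The study's criterion, recounted over the 9522 genes tested here, was met by 215 genes higher and 449 lower. The paper applied it to a smaller set of genes and printed lower counts. In the recount 116 were higher with RPKM over 1 in at least 3 mice, 140 with unequal variances and 130 to 256 with 1 mouse left out. No paired analysis was possible because mouse numbers differ between the cohorts. Each cohort held 3 mice, which limits precision most for the genes that varied within a cohort.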

Other observations

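Several pathway genes stood out in 1 mouse or just missed the threshold, and were picked out after their values were seen. *Il3*, which encodes a growth factor of myeloid progenitors, had 21 reads and 1.33 RPKM in mouse 3.5 and 0 reads in the other 5 mice. *Csf3*, which encodes G-CSF, had 29 reads and 1.25 RPKM in mouse 3.3 and 4 reads in mouse 1.4, with 0 in the other 4. *Clcf1*, a ligand gene of the IL6 family, was too low to be tested, with 26, 25 and 29 reads in *Hoxa9*/MTV mice and 0 in all 3 *Hoxa9*/*IRX3* mice, at least 8.77-fold lower against 3 reads per library. *Lifr*, which encodes the receptor chain for LIF, was also too low to be tested and had 138, 186 and 312 reads against 3, 0 and 5.

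*Sh2b3* encodes LNK, an adaptor that restrains JAK2. Its RPKM were 9.57, 7.55 and 11.3 in *Hoxa9*/MTV mice and 5.70, 3.72 and 3.18 in *Hoxa9*/*IRX3* mice, with cohorts that did not overlap and a log2 fold change of -1.10 ± 0.24 (SE; limma adjusted p = 0.0504). *Vegfa*, a target gene of STAT3 that encodes a growth factor of blood vessels, had RPKM of 3.49, 3.07 and 4.16 against 16.9, 5.82 and 11.0. Its order among *Hoxa9*/*IRX3* mice was that of *Cish*, with mouse 3.2 highest and mouse 3.3 lowest, and it did not pass (log2 fold change 1.42 ± 0.36, SE; limma adjusted p = 0.0723).

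*Il2rg*, the common receptor chain of IL2 and related cytokines, had RPKM of 4.20, 4.84 and 2.72 in *Hoxa9*/MTV mice and 3.61, 16.2 and 25.2 in *Hoxa9*/*IRX3* mice. Mouse 3.2 lay within the *Hoxa9*/MTV range and mice 3.3 and 3.5 lay above it, an order unlike that of *Cish*, and *Il2rg* did not pass (log2 fold change 1.48 ± 0.65, SE; limma adjusted p = 0.224). *Il6st*, the signal chain of the IL6 family, had RPKM of 3.25, 2.74 and 3.01 against 0.574, 3.03 and 0.256, so that mouse 3.3 lay within the *Hoxa9*/MTV range, as it did for *Cish* (log2 fold change -1.30 ± 0.53, SE; limma adjusted p = 0.200).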
